A study of Homo sapiens with 21 samples.

Results

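PC-9 cells kept in gefitinib were compared with PC-9 cells without a resistance code, across the circular RNAs (circRNAs) that passed a filter on low counts. PC-9 is a human lung cancer line with a mutant epidermal growth factor receptor (EGFR), and gefitinib is a small molecule that blocks the kinase of that receptor. The resistant cells, called PC-9_GR here and coded PGR in the labels, were treated with 1 µM gefitinib. The cells they are set against, called PC-9 here and coded PP, carry no resistance code, and no drug is given for them. Both were sequenced as 3 libraries, so the comparison takes 6 of the 21 libraries of the study, chosen by those codes. The other 15 libraries serve as context only. They are NCI-H1975_OR, a second EGFR-mutant lung cancer line kept in 1 µM osimertinib, NCI-H1975 without a resistance or plasmid code, NCI-H1975 transfected with FASN or with pCMV6, both given 50 µg/ml of the selection agent G418, and the non-tumorigenic bronchial line NL20. The labels give the same mutation status, growth medium and passage range for PC-9_GR and PC-9, and do not say how resistance was obtained, whether the resistant cells are 1 clone, or whether the 3 libraries of a group are separate cultures.

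A circRNA is a closed loop made when the spliceosome joins the end of an exon to the start of an exon upstream of it, a step called back-splicing. Loops have no free end for exonucleases to attack, so they decay slowly and can build up in cells. Some act by binding microRNAs or proteins, and most have no known role. Gefitinib resistance in EGFR-mutant lung cells is known to arise through second mutations of the receptor, through other kinases that bypass it, or through a change of cell state. The circRNAs of the table are numbered within the table and the files do not pair those numbers with gene names, coordinates or sequences. At most 2 circRNAs that rose and 2 that fell are therefore named, by number, and no role can be given for them. The counts come from whole cultures, in which fewer cells with a circRNA and fewer copies in each cell cannot be told apart.

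The 6 libraries held between 108805 and 120142 reads in PC-9_GR, and between 106266 and 192666 reads in PC-9. In all, 63382 of the 124082 circRNAs of the table had a read in at least 1 of the 6 libraries. Of these, 23679 were read in both groups, 18552 in PC-9_GR alone and 21151 in PC-9 alone. The circRNAs read in 1 group alone were rare ones and took only 4.65% of the reads of the 6 libraries for those of PC-9_GR and 6.31% for those of PC-9. The 5571 circRNAs read in every one of the 6 libraries took 68.6%. A filter on low counts over all 21 libraries left 9175 circRNAs for the test, of which 237 had no read in PC-9_GR or PC-9.

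PC-9_GR libraries resembled PC-9 libraries more than those of any other line they were set against. The Spearman correlation of log2 CPM, counts scaled to a common library total, across the 9175 circRNAs had a median of 0.63 over the 9 pairs of a PC-9_GR and a PC-9 library. It was 0.375 for pairs of PC-9_GR and NCI-H1975 libraries and 0.423 for pairs of PC-9_GR and NL20 libraries. No marker gene could be looked up, so this likeness is the check of the labelled line. Among the 965 circRNAs with a mean of 20 or more reads in the 6 libraries, the groups separated more clearly. There the correlation lay between 0.621 and 0.68 between PC-9_GR and PC-9, against 0.8 to 0.82 within PC-9_GR and 0.814 to 0.833 within PC-9. The ranges within and between the groups did not overlap. These correlations are across circRNAs of shared libraries and are descriptions.

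**Figure D1:**
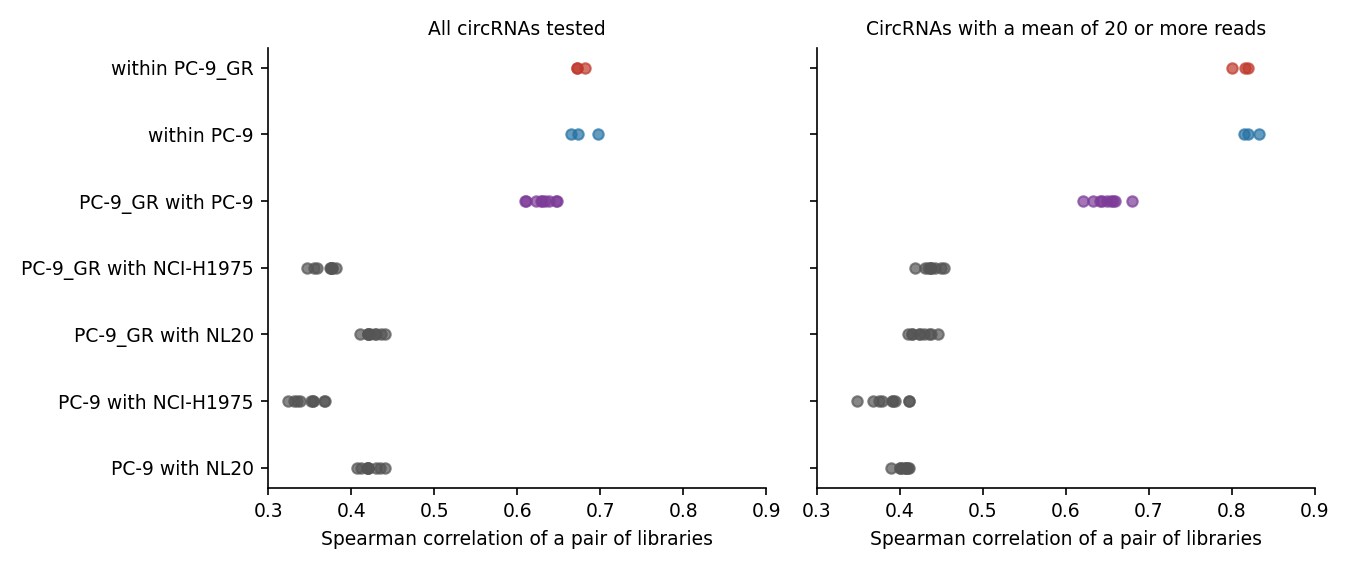
Spearman correlation of log2 CPM (x axis) for each pair of libraries, 1 point per pair, over the 9175 circRNAs tested (left) and over the 965 with a mean of 20 or more reads (right). Pairs of a PC-9_GR and a PC-9 library lie below the pairs within either group and above all pairs with NCI-H1975 or NL20.

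How far PC-9_GR and PC-9 differed in their likeness to the other lines depended on the circRNAs taken. Over all 9175 circRNAs the pairs with NL20 ran from 0.411 to 0.441 for PC-9_GR and from 0.407 to 0.441 for PC-9. Those with NCI-H1975 ran from 0.346 to 0.382 for PC-9_GR and from 0.323 to 0.368 for PC-9, so that both overlapped. For the 965 better read circRNAs the mean correlation of a library with the NCI-H1975 libraries was 0.432, 0.441 and 0.44 in PC-9_GR, against 0.404, 0.367 and 0.385 in PC-9. With NL20 it was 0.418, 0.44 and 0.421 in PC-9_GR, against 0.41, 0.397 and 0.406 in PC-9. Every PC-9_GR library stood above every PC-9 library in both measures over these 965. The exact two-sided permutation p was 0.1 for each, the smallest that 3 libraries against 3 allow, and 0.6 after adjustment over the 12 library measures tested. No difference between 3 libraries and 3 could reach a p under 0.05, so this test cannot decide on either.

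The comparison of PC-9_GR with PC-9 asks which circRNAs differ between the gefitinib-resistant cells and PC-9. The labels give gefitinib for PC-9_GR only. Resistance, the presence of the drug and the history of the cells therefore cannot be told apart, here or where changes with resistance are named below. Of the 9175 circRNAs tested, 124 were called at an adjusted p under 0.05 by edgeR's quasi-likelihood test with Benjamini-Hochberg adjustment, or 1.35%. In PC-9_GR 67 circRNAs were higher (0.73%) and 57 were lower (0.621%). For the 58 higher circRNAs with more than 3 reads in both groups, the size of the change ran from 0.66 to 3.16 on the log2 scale, with a median of 1.39. For the 43 such lower ones it ran from 0.76 to 3.18, with a median of 1.38. The other 9 higher and 14 lower ones had at most 3 reads in 1 group, where a fitted size depends on the small count added in the fit. With circRNAs that had no read in a group taken at their lower bound, the change was over 2-fold for 54 of the 67 and for 49 of the 57. The groups did not overlap in CPM for 66 of the 67 higher circRNAs and for all 57 of the lower ones. Over all circRNAs tested, 7.64% lay wholly higher and 9.22% wholly lower in PC-9_GR.

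**Figure D2:**
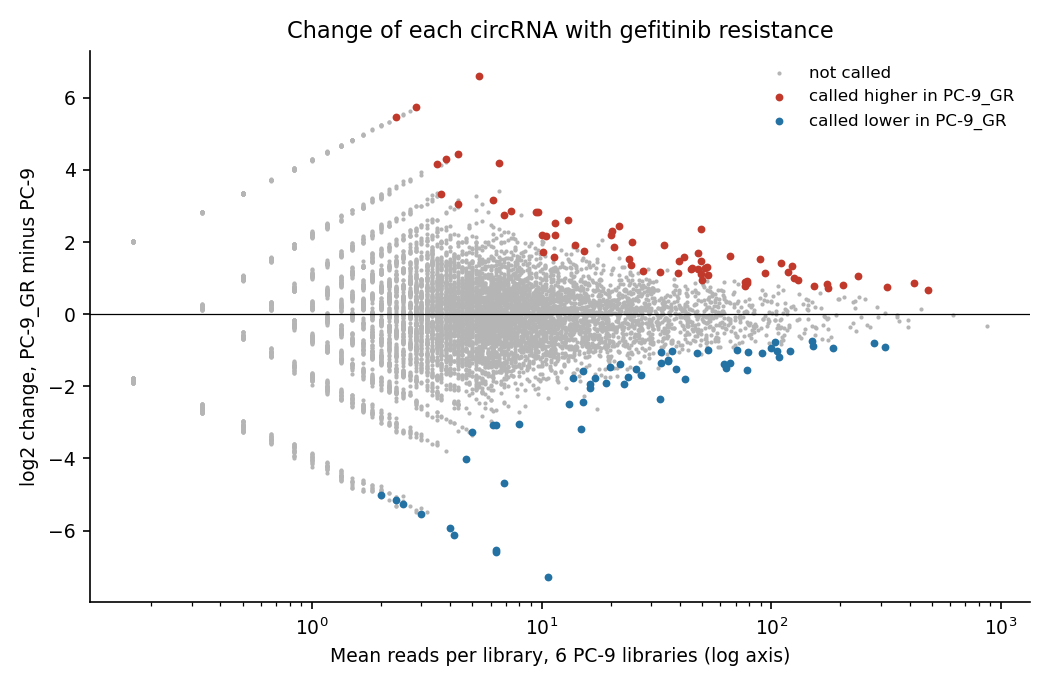
Log2 change of each tested circRNA with a PC-9 or PC-9_GR read (y axis, PC-9_GR minus PC-9) against its mean reads per library in the 6 libraries (x axis, log scale), 1 point per circRNA. The 67 circRNAs called higher (red) and the 57 called lower (blue) leave the grey cloud at small changes only where counts are high. The diagonal bands at low counts are circRNAs with few reads in 1 group and none in the other, and their fitted changes depend on the small count added in the fit.

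The circRNA with the smallest p was hsa_circ_502, which was 5.17-fold higher in the resistant cells. It stood at 831, 701 and 1224 CPM in PC-9_GR, against 186, 131 and 226 CPM in PC-9, from 71, 64 and 108 reads against 18, 18 and 19. All PC-9_GR libraries lay above all PC-9 libraries. Its log2 change was 2.37 ± 0.27 (SE, edgeR adjusted p = 5.14e-14). The level in PC-9_GR was like that of the other lines. hsa_circ_502 averaged 932 ± 64.0 CPM in NL20 (SD, n = 3) and had a mean between 694 and 1065 CPM in the NCI-H1975 groups. PC-9 held the least of it among the 7 groups.

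hsa_circ_7464 was also higher in PC-9_GR than in PC-9, while the order of the other groups differed from that of hsa_circ_502. It stood at 632, 504 and 634 CPM in PC-9_GR, against 175, 102 and 202 CPM in PC-9. The groups did not overlap, and the log2 change was 1.92 ± 0.29 (SE, edgeR adjusted p = 2.74e-07). The NL20 mean was 854 ± 137 CPM (SD, n = 3) and the means of the NCI-H1975 groups ran from 584 to 1133 CPM. PC-9 again had the lowest level of the 7 groups.

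Among the circRNAs that fell, hsa_circ_16219 was 2.03-fold lower. It had 831, 734 and 838 CPM in PC-9_GR, against 1858, 1422 and 1619 CPM in PC-9, and 212 reads in PC-9_GR against 511 in PC-9. Its log2 change was -1.02 ± 0.17 (SE, edgeR adjusted p = 3.5e-06), and no PC-9_GR library reached the lowest PC-9 library. Here PC-9 was already low. NL20 held 3419 ± 468 CPM of hsa_circ_16219 (SD, n = 3) and the NCI-H1975 groups between 3195 and 4585 CPM, so PC-9_GR had the least of the 7 groups.

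hsa_circ_13695 stood at 375, 427 and 385 CPM in PC-9_GR, against 1073, 1181 and 1190 CPM in PC-9. It was 2.89-fold lower, with a log2 change of -1.53 ± 0.26 (SE, edgeR adjusted p = 3.78e-06), and the groups did not overlap. Its level differed between the other lines. NL20, at 1395 ± 214 CPM (SD, n = 3), was nearer to PC-9. NCI-H1975, at 478 ± 97.7 CPM, was nearer to PC-9_GR. The 3 NCI-H1975_OR libraries had 292, 80.4 and 438 CPM.

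**Figure D3:**
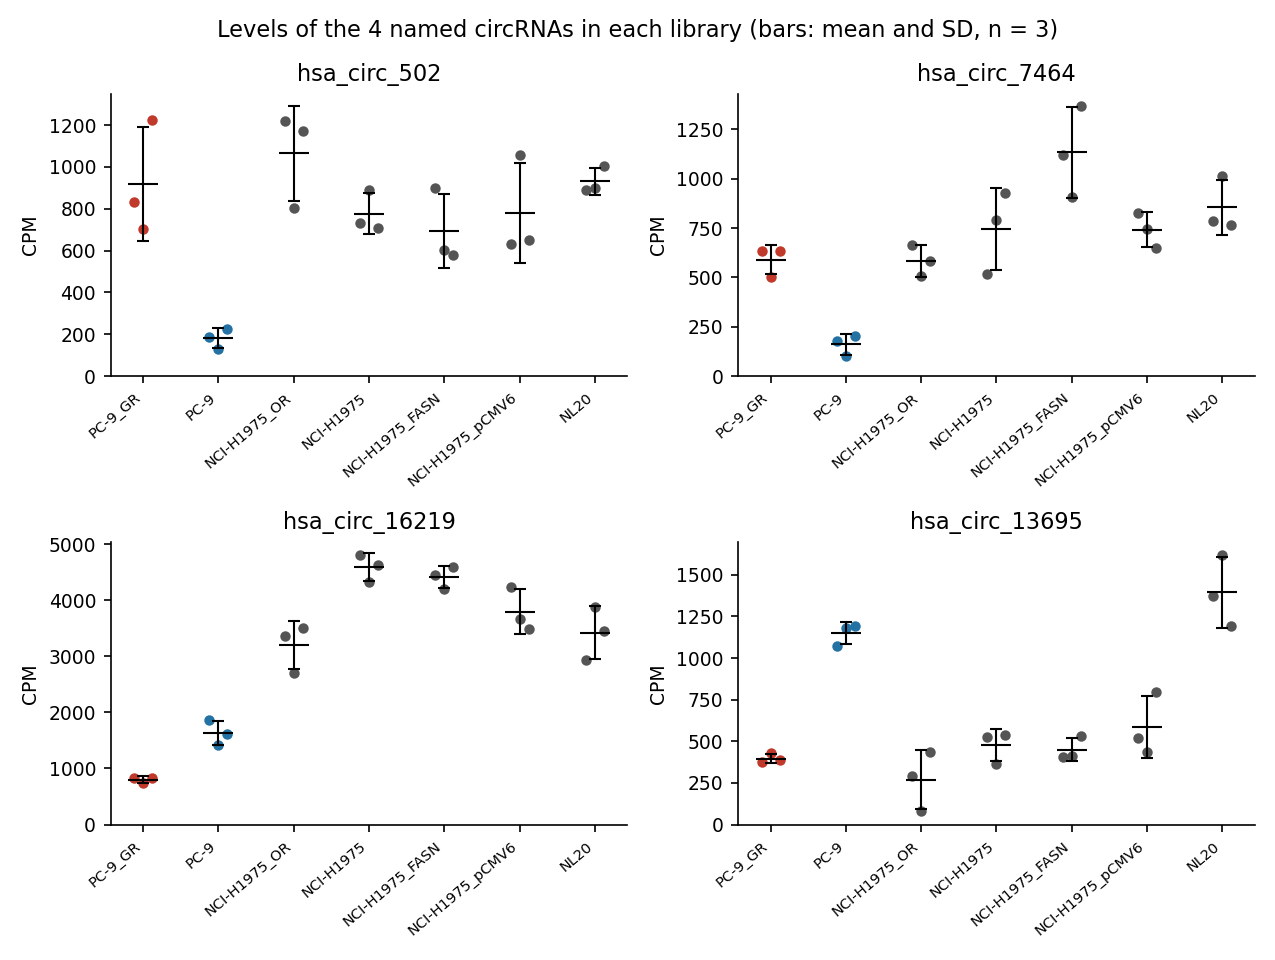
CPM (y axis, from 0) of the 4 named circRNAs in each library of the 7 groups, 1 point per library, with the mean and SD as bars (n = 3). For hsa_circ_502 and hsa_circ_7464 the PC-9 libraries are the lowest and PC-9_GR lies among the other lines. For hsa_circ_16219 PC-9_GR is the lowest group.

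These 4 were chosen among the calls whose groups did not overlap in CPM, so that separation is part of the choice. Among those, they were called most often when 1 of the 6 libraries was left out, with ties settled by the smallest p. Each was called in all 6 such fits, which the rule favoured. The log2 change of hsa_circ_502 then lay between 2.12 and 2.55 and that of hsa_circ_7464 between 1.64 and 2.11. It lay between -1.12 and -0.94 for hsa_circ_16219 and between -1.60 and -1.50 for hsa_circ_13695. In all, 15 of the 67 higher and 8 of the 57 lower circRNAs were called in all 6 fits. Their changes had medians of 1.33 and 1.53 on the log2 scale. Most were well read, with a median of 93.7 reads per library for the higher and 58.5 for the lower ones. The least read had a mean of 20.3 reads among the higher and 6.83 among the lower ones. The largest fitted sizes were 2.46 and 4.68, and the latter depends on the small count added in the fit. All 23 lay wholly above or wholly below PC-9 in PC-9_GR, as did 66 of the 67 higher and all 57 lower calls. Over all circRNAs tested 7.64% lay wholly higher and 9.22% wholly lower. None of the 23 was restricted to PC-9_GR and PC-9.

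Leaving out a library lowered the count of calls to between 48 (without PC-9 replicate 2, the deepest library) and 72 (without PC-9 replicate 3). The count was 63, 64 and 58 without PC-9_GR replicates 1, 2 and 3, and 70 without PC-9 replicate 1. Part of this loss came with the filter, which asks for as many libraries as the smallest group has and let between 11364 and 12236 circRNAs into the test once a group had 2. With the 9175 circRNAs held fixed, between 56 (without PC-9 replicate 2) and 80 were called. In those fits 19 higher and 10 lower circRNAs were called in all 6.

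How many circRNAs were called followed how deeply they were read. Of the 328 circRNAs with a mean of 50 or more reads in the 6 libraries, 42 were called, or 12.8%, 24 higher and 18 lower in PC-9_GR. Of the 637 with 20 to under 50 reads, 34 were called, or 5.34%. The share was 1.03% of the 3286 with 5 to under 20 reads and 0.284% of the 4924 with fewer. The median SE of the log2 change was 0.25 in the best read class and 1.24 in the least read one. At 50 or more reads the median was 0.99 on the log2 scale and the lowest value 0.66, so changes of under 2-fold were called there. All 14 circRNAs called with a mean under 5 reads had at most 3 reads in 1 group, and their fitted sizes are not given.

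The same classes show how many circRNAs were bounded near no change. For 440 of the 9175 the 95% interval of the log2 change lay within 1 either way, that is, within 2-fold. They made up 63.1% of the circRNAs with 50 or more reads and 28.3% of those with 20 to under 50. With 5 to under 20 reads it was 1.52%, and with fewer reads 3 circRNAs. The SE, taken as the size of the log2 change over the root of F, is unreliable where that change is near 0. Fitted changes near 0 are among those of the 3, while the median SE under 5 reads was 1.24. The 3 are therefore counted in the 440 but not read as bounded near no change. For circRNAs outside the 440 the counts allow a 2-fold change in at least 1 direction.

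**Figure D4:**
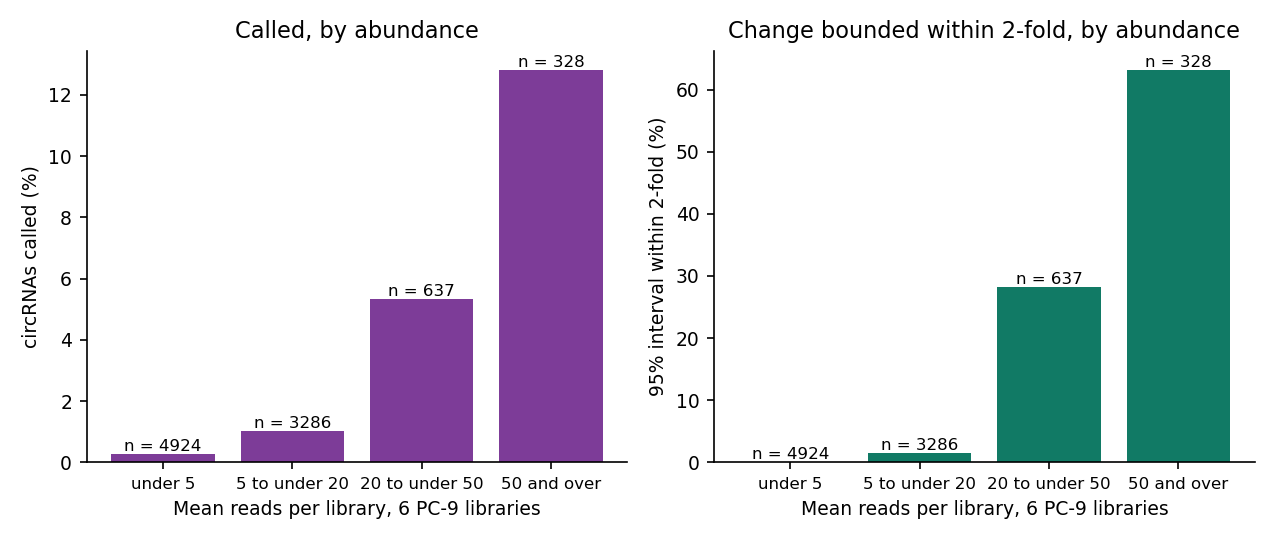
Percent of tested circRNAs called (left, y axis) and percent whose 95% interval of the log2 change lies within 2-fold (right, y axis), by mean reads per library in the 6 libraries (x axis), with the number tested above each bar. Both shares are highest at 50 or more reads, at 12.8% and 63.1%.

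The most abundant circRNAs were largely shared. Of the 10 with the most reads in PC-9_GR and the 10 with the most in PC-9, 8 were the same, and the first was the same circRNA. It took between 0.519% and 0.636% of the reads in PC-9_GR libraries and between 0.625% and 0.786% in PC-9 libraries. Of the 12 circRNAs in either list, 3 were called higher and 1 lower, with log2 changes between -0.90 and 0.87. For 9 of the 12 the interval lay within 2-fold. Of the 100 most abundant of each group 75 were shared. Among the 125 circRNAs in either of those lists, 16 were called higher and 12 lower, and 82 were bounded within 2-fold. The share called was 22.4%, beside 1.35% over all circRNAs tested and 12.8% over those with a mean of 50 or more reads. Abundance in either group chose these circRNAs, so the share is a description.

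The 67 circRNAs called higher took between 4.66% and 5.15% of the reads of a PC-9_GR library, against 2.20% to 2.30% in PC-9. The 57 called lower took between 1.34% and 1.36% in PC-9_GR, against 2.87% to 2.98% in PC-9. These shares rest on circRNAs chosen by this contrast and describe how much of the counted circRNA the calls make up.

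Few calls were a gain or loss of all reads. Of the 67 higher circRNAs 3 had no read in PC-9. With a floor of 3 counts over the PC-9 libraries the smallest of these bounds was at least 5.6-fold and the largest at least 12.8-fold higher, from 14 to 32 reads. Of the 57 lower ones 9 had no read in PC-9_GR with 12 to 64 reads in PC-9. On the same floor their bounds began at 3.33-fold lower and reached 17.8-fold lower. Of these 12 circRNAs, 11 were also read in at least 1 library outside PC-9_GR and PC-9. With these circRNAs at their bounds, the calls had a median log2 change of 1.53 (67 higher) and of 1.56 in size (57 lower).

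Over the whole table, including circRNAs too rare to test, 290 were read in every PC-9_GR library and in no PC-9 library, and 413 in every PC-9 library and in no PC-9_GR library. Most had few reads, with a median of 6 and 7 reads in the 6 libraries. The test took in 50 of the 290 and called 3 (6%), beside 0.73% called higher over all circRNAs tested. It took in 64 of the 413 and called 9 (14.1%), beside 0.621% called lower over all. These circRNAs were picked for their separation between the groups, so nothing is read from those shares. Of the 290, 273 (94.1%) had a read in another line. Of the 413, 366 (88.6%) had one. With at least 2 reads asked for in every library of the group, 53 remained for PC-9_GR and 113 for PC-9. With the 6 libraries thinned to the smallest total among them, the counts were 357 for PC-9_GR and 332 for PC-9. Their order thus turned at equal depth, so no net loss or gain is read from them.

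The number of distinct circRNAs did not separate the groups. With every library thinned to 106266 reads, PC-9_GR libraries had 21548, 20958 and 22073 circRNAs, and PC-9 libraries 22204, 21953 and 20320. The groups overlapped, and PC-9_GR minus PC-9 was 34.4 (exact two-sided permutation p = 1, and 1 after adjustment over 12 measures). The circRNAs read in no library outside PC-9_GR and PC-9 numbered 19692. They took 6.90% ± 0.16 of the reads in PC-9_GR and 6.94% ± 0.17 in PC-9 (SD, n = 3 each, exact two-sided permutation p = 0.7). Both differences were smaller than the spread between libraries of a group, and their sign turned without 1 library in 4 cases. The difference in distinct circRNAs was -239 without PC-9_GR replicate 3 and -552 without PC-9 replicate 3. That in restricted reads was 0.0348 percentage points without PC-9_GR replicate 2 and 0.0541 without PC-9 replicate 2.

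Most calls were also read in the other lines, as were most circRNAs that passed the filter, which ran over all 21 libraries. Of the 67 higher ones 64 (95.5%) were read in NL20 and 63 (94%) in NCI-H1975. Of the 57 lower ones 51 (89.5%) were read in NL20 and 53 (93%) in NCI-H1975. Over all circRNAs tested the shares were 94.3% and 96.1%. Only 1 higher and 2 lower circRNAs were restricted to PC-9_GR and PC-9.

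The place of both groups among the 7 gave a common picture for the calls. Of the 67 higher circRNAs, PC-9 had the lowest mean CPM of the 7 groups for 39 (58.2%) and PC-9_GR the highest for 25 (37.3%). Over all circRNAs tested PC-9 was lowest for 15.9% and PC-9_GR highest for 14.6%. Of the 57 lower circRNAs, PC-9_GR was the lowest of the 7 for 29 (50.9%), against 15.6% over all, and PC-9 the highest for 25 (43.9%), against 17% over all. The choice of the calls fixes the order of PC-9_GR and PC-9, so these shares are descriptions. The median CPM of the higher circRNAs was 590 in PC-9_GR, 203 in PC-9, 358 in NCI-H1975 and 235 in NL20. For the lower circRNAs it was 121 in PC-9_GR, 367 in PC-9, 249 in NCI-H1975 and 307 in NL20.

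The called circRNAs were then followed in the other resistant line, in NCI-H1975_OR against NCI-H1975, which shares no library with the comparison in PC-9. Of the 67 circRNAs higher in PC-9_GR, 31 had a positive and 33 a negative log2 change there, 3 had no read in either group, and the median was 0. Of the 57 lower in PC-9_GR, 22 had a positive and 33 a negative change, with a median of -0.29, beside -0.05 over all circRNAs tested. In NCI-H1975_OR edgeR's test called 2.52% of all circRNAs, 1.36% higher and 1.16% lower. Of the 67, it called 3 higher and 4 lower there, and of the 57 it called 1 higher and 5 lower. These circRNAs were better read than most, with medians of 39.3 (higher) and 25.7 (lower) reads per library of PC-9_GR and PC-9. Over all circRNAs tested the median was 4.5. Calls in PC-9_GR were more frequent among better read circRNAs, so nothing is read from these counts beside the 2.52%.

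**Figure D5:**
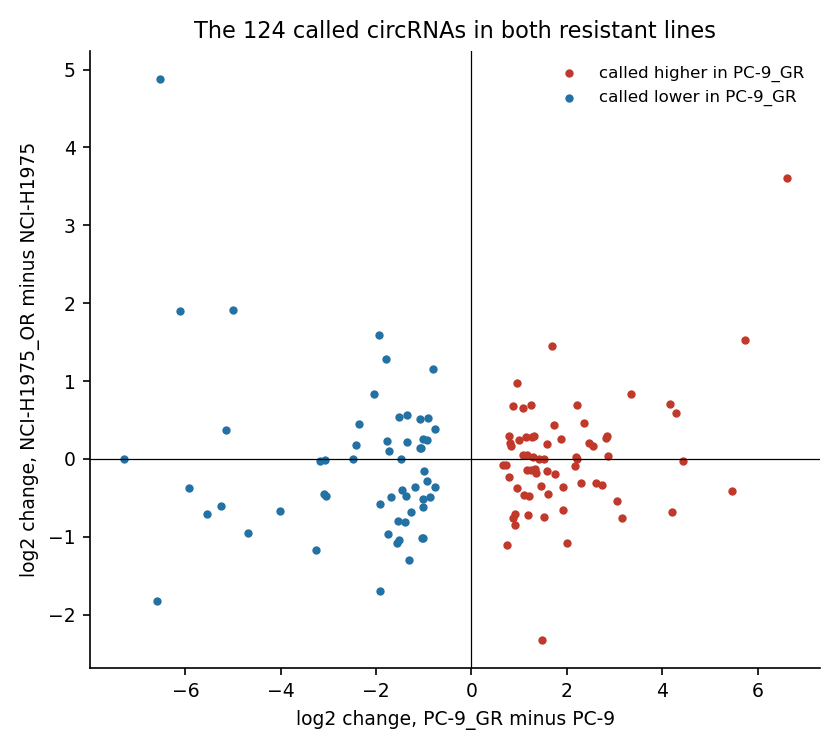
Log2 change in NCI-H1975_OR minus NCI-H1975 (y axis) against that in PC-9_GR minus PC-9 (x axis) for the 124 circRNAs called in PC-9_GR, 1 point per circRNA, red for the 67 higher and blue for the 57 lower ones. The red points lie about evenly above and below 0 on the y axis, and 33 of the 57 blue ones lie below it.

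The difference between the changes in the resistant lines was tested as an interaction. It was called for 1.77% of all circRNAs, and for 0.828% and 0.937% with the higher log2 change in PC-9_GR and in NCI-H1975_OR. Of the 67 circRNAs higher in PC-9_GR 30 were called for it, and 16 of the 57 lower ones. The change in PC-9 is part of that difference and also chose these circRNAs, so the shares carry no separate weight. hsa_circ_16219 and hsa_circ_13695 were not called for it. hsa_circ_16219 was also lower in NCI-H1975_OR, by a log2 change of -0.52 ± 0.16 (SE, edgeR adjusted p = 0.0365), and its changes differed by -0.50 ± 0.23 (SE, edgeR adjusted p = 0.319). For hsa_circ_13695 the log2 change in NCI-H1975_OR was -0.79 ± 0.27 (SE, edgeR adjusted p = 0.1), and the changes differed by -0.74 ± 0.38 (SE, edgeR adjusted p = 0.397).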

How the data were processed

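The authors deposited raw read counts for every circRNA in each library, seen from the whole numbers and unequal totals. Per the labels' protocols, a sequencing provider enriched circular RNA from column-purified total RNA and built the libraries. The submitters' processing notes name hg38, HISAT2 and DESeq2 without versions or roles. The circRNA caller is not given in the sources used here. All 21 columns were matched to samples by their codes.

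In R 4.3.3 with edgeR 4.0.16, filterByExpr (minimum count 5, minimum total 15) kept 9175 circRNAs (7.39%). They held between 74.4% and 76.2% of the reads of the 6 libraries. Counts were scaled with TMM, the trimmed mean of M values. A quasi-likelihood model with robust spread and a mean per group was fitted to the 21 libraries of all 7 groups. For 99.2% of the circRNAs the spread was taken wholly from the trend across circRNAs. Calls were made at a Benjamini-Hochberg adjusted p under 0.05, and the SE is the size of the log2 change over the root of F. Within groups the biological coefficient of variation was 37.6% in PC-9_GR and 41.7% in PC-9, and every pair of replicates had a chi-square of at least 2.13 per degree of freedom, so no library repeated another. The p-values thus rest on a spread pooled over circRNAs and over all 7 groups. For most circRNAs they do not measure the spread of that circRNA between the PC-9_GR and PC-9 libraries. Since separate cultures are not stated, the spread between libraries may be technical. Floors cover counting error only, as PCR reads without molecular identifiers are not independent molecules. CPM use the TMM-scaled reads of the tested circRNAs, and log2 CPM a prior count of 2. Distinct circRNAs are means of 100 draws. Library measures were tested by exact two-sided permutation. The code was tested on simulated counts. DESeq2 1.42.0, other scalings, filters and designs were tried as alternatives. The rule for named circRNAs was to take, among calls whose groups do not overlap, the 2 in each direction called in the most fits that leave out 1 library, then the smallest p. The comparison and these rules were chosen with earlier results of these data known. The marker genes planned as a check could not be looked up.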

Additional observations from a re-analysis of the deposited data

Results flagged for a closer look

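The changes of hsa_circ_502 and hsa_circ_7464 differed between the resistant lines, by a test of the difference itself. hsa_circ_502 had a log2 change of 2.37 ± 0.27 in PC-9_GR and of 0.46 ± 0.23 in NCI-H1975_OR (SE), each against its own line, and the difference of 1.91 ± 0.36 had an edgeR adjusted p of 6.89e-05. For hsa_circ_7464 the changes were 1.92 ± 0.29 and -0.36 ± 0.25 (SE), and the difference of 2.28 ± 0.39 had an edgeR adjusted p of 3.49e-06. Both circRNAs were chosen for their change in PC-9_GR, which is part of the difference.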

How the results depend on the processing

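The 4 named circRNAs kept their direction and stayed called in edgeR under other scalings, other filters, the 6 libraries alone and the block. The same held with DESeq2. It also held with each library left out, a setting that was used to choose them. Against a change of 1.5-fold, glmTreat no longer called hsa_circ_16219. The 124 calls became 211 with DESeq2 (108 shared), 233 in a fit of the 6 libraries alone, which tests 4107 circRNAs (106 shared), 16 without the filter, which tests 124082, and 18 against a change of 1.5-fold. With a library left out it ran from 48 to 72, and with the same circRNAs tested from 56 to 80, with 63 without PC-9_GR replicate 3 and 78 without PC-9 replicate 3. The 76 calls with a mean of 20 or more reads, a count added after the data were seen, became 127, 154, 12 and 10 in those 4 settings and 38 to 48 with a library left out. With the same circRNAs tested it was 40 without PC-9_GR replicate 3 and 43 without PC-9 replicate 2, and at most 57. The 162 calls for the difference between the resistance changes became 248 with DESeq2 and 21 without the filter, and 79 (without PC-9_GR replicate 1) to 141 (without NCI-H1975_OR replicate 2) with a library left out. The count of 440 circRNAs bounded within 2-fold stayed within 1.5 times under every alternative run. The counts of circRNAs in every library of 1 group and none of the other rose with a library left out, as fewer libraries must agree. They then lay between 458 and 980 for PC-9_GR and between 739 and 1539 for PC-9. With at least 2 reads they fell to 53 and 113. With the 6 libraries thinned to the smallest total they were 357 for PC-9_GR and 332 for PC-9, which turned their order.

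The difference in distinct circRNAs of 34.4 turned to -187 with at least 2 reads and to -1495 without thinning, and ran from -552 to 390.1 with a library left out. That in reads restricted to PC-9_GR and PC-9, of -0.0451 percentage points, turned to 0.11 among filtered circRNAs and ran from -0.125 to 0.0541. Same-numbered libraries showed no shared deviation, with correlations of 0.0121, -0.00492 and -0.025. The circRNAs tested had a median of 4.5 reads per library, where counting noise can hide a pairing, so these values cannot exclude one. No cross-numbered pair correlated above 0.0308. A fit with the replicate block gave 118 calls, 115 of them shared with the 124, and 591 circRNAs bounded within 2-fold in place of 440. Depth limits what could be called with a mean under 5 reads, where the median SE of the log2 change was 1.24.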
